A study of Rattus norvegicus with 8 samples.

Results

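Vesicle trafficking and exocytosis genes were examined in RNA-seq libraries of rat dorsal root ganglia (DRG) taken with or without chronic constriction injury (CCI) of the sciatic nerve. These are 22 of the 32623 genes in the count table. They were chosen by symbol (Rab, synaptotagmin, syntaxin, SNAP, VAMP, complexin, SV2, Napb, Vps, sorting nexin and adaptor subunit names) among genes with 10 or more counts in 2 or more libraries, and only among the 1961 genes that the study's published gene lists pair with a symbol. Measured differences therefore chose the members. The study's list of the sex by CCI interaction holds 18 of them, its list of genes higher in naive males holds 4 (Vps52 is on both), and Syt4 comes from the top genes of CCI in each sex. All 22 symbols that matched reached the count minimum, and none lay outside it. Vps25 was closest to it, with 300 counts in its second-highest library.

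Adult Sprague-Dawley rats of both sexes received CCI, in which the sciatic nerve is loosely tied with silk, or no treatment, and ipsilateral L4-L6 DRGs were taken on day 14. The groups were naive males, CCI males, naive females and CCI females, with 2 libraries each (8 in all), and a library held the pooled ganglia of 1 rat. Controls were naive and had no sham surgery, the stage of estrus was not determined, and CCI rats without enough loss of paw withdrawal threshold were not used. Library totals ran from 39489103 to 60818457 counts. Sequencing took place in batches that the sample labels do not give, and the table's columns for naive male 1 and CCI male 1 alone carry a suffix whose meaning is not given, so a batch effect cannot be told apart from the spread between rats or from a difference between groups.

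Exocytosis is the fusion of a vesicle with the plasma membrane. It is driven by SNARE proteins, with a VAMP on the vesicle and a syntaxin and a SNAP-25 type protein on the target membrane, and is timed by synaptotagmins and complexins. Rab GTPases direct vesicles to their target, adaptor complexes and sorting nexins select cargo, and Vps proteins tether vesicles or sort cargo into the lysosomal route. Sensory neurons of the DRG release glutamate and neuropeptides from their terminals by this machinery, and all cells of the ganglion use the sorting part of it.

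CCI raised Syt4, Sv2b and Syt2 and lowered Stx4 and Vps25 when the change was averaged over the sexes. Levels are given as CPM, the counts of a gene scaled to the library total after its normalization factor. The averaged CCI effect weighs both sexes equally. In a balanced design with equal spread in every group it would be independent of the interaction and of the naive sex difference that chose the 21 members other than Syt4. Equal spread cannot be assumed. The chi-square per gene between the libraries of a group was 39.8 in naive males, 23.3 in CCI males, 26.0 in naive females and 13.2 in CCI females. It was taken on raw counts scaled by library total, so it also depends on depth and compares the groups only roughly. The averaged effect can thus share some of its error with the contrasts that chose the members, and its p-values cannot be taken as fully free of that choice. It is still the comparison farthest from the choice and the one given here as a test (edgeR quasi-likelihood test, two-sided, Benjamini-Hochberg adjusted over 16988 genes). A gene passed at an adjusted p below 0.05 and an absolute log2 fold change (log2FC) above 0.5. Of the 21 members, 4 passed (19%), against 15.4% of all genes tested, a share near the background. By the adjusted p alone 15 of 21 passed (71.4%), against 41% of all genes. Of these 9 were higher and 6 lower, beside 21.3% and 19.7% of all genes. The median log2FC was 0.14 over the 21 members and -0.02 over all genes. A gene whose CCI change differs between the sexes must change after CCI in males, in females or in both. The choice can thus raise the shares given here, which describe the members and do not test them as a set. All 22 members passed the low-count filter, and 21 of them had at least 479 counts in every library. The genes tested include genes of lower depth, near the filter's minimum count of 10, and the shares were not compared at like depth.

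Syt4, an atypical synaptotagmin of dense-core and other vesicles, had a CPM of 247 and 281 in naive males, 720 and 658 in CCI males, 321 and 311 in naive females, and 737 and 781 in CCI females. Every CCI library lay above every naive library. The averaged log2FC was 1.32 ± 0.06 (SE, n = 8), a 2.50-fold higher level, and is a description because CCI lists chose this gene. Sv2b, a glycoprotein of the synaptic vesicle membrane, had a CPM of 244 and 275 in naive males, 498 and 426 in CCI males, 319 and 328 in naive females, and 387 and 421 in CCI females. Its 4 CCI libraries lay above its 4 naive libraries, with an averaged log2FC of 0.58 ± 0.07 (SE, n = 8, edgeR adjusted p = 0.000762). Syt2, a fast calcium sensor of neurotransmitter release, had a CPM of 169 and 191 in naive males, 315 and 293 in CCI males, 191 and 216 in naive females, and 231 and 265 in CCI females. The groups again did not overlap, and the averaged log2FC was 0.52 ± 0.07 (SE, n = 8, edgeR adjusted p = 0.00136). This value is close to the 0.5 threshold: it was 0.48 without naive male 1, 0.49 without CCI male 1, 0.46 without naive female 1 and 0.47 without CCI female 2, each with an edgeR adjusted p of at most 0.00800.

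Stx4, a plasma membrane syntaxin of many cell types, had a CPM of 63.8 and 56.1 in naive males, 35.1 and 34.9 in CCI males, 44.5 and 49.1 in naive females, and 39.6 and 38.7 in CCI females. CCI libraries lay below all naive libraries, and naive males were highest. The averaged log2FC was -0.52 ± 0.06 (SE, n = 8, edgeR adjusted p = 0.000670), and fell short of the threshold without naive male 1 (-0.47) or without naive female 2 (-0.48). Vps25, a subunit of the ESCRT-II complex that sorts membrane proteins for degradation, had a CPM of 6.23 and 5.50 in naive males, 2.16 and 1.86 in CCI males, 2.60 and 3.17 in naive females, and 1.34 and 0.870 in CCI females. It was measured on 34 to 326 counts per library, by far the fewest of the members. Its averaged log2FC was -1.46 ± 0.17 (SE, n = 8, edgeR adjusted p = 0.000711), with no overlap between CCI and naive libraries.

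**Figure D1:**
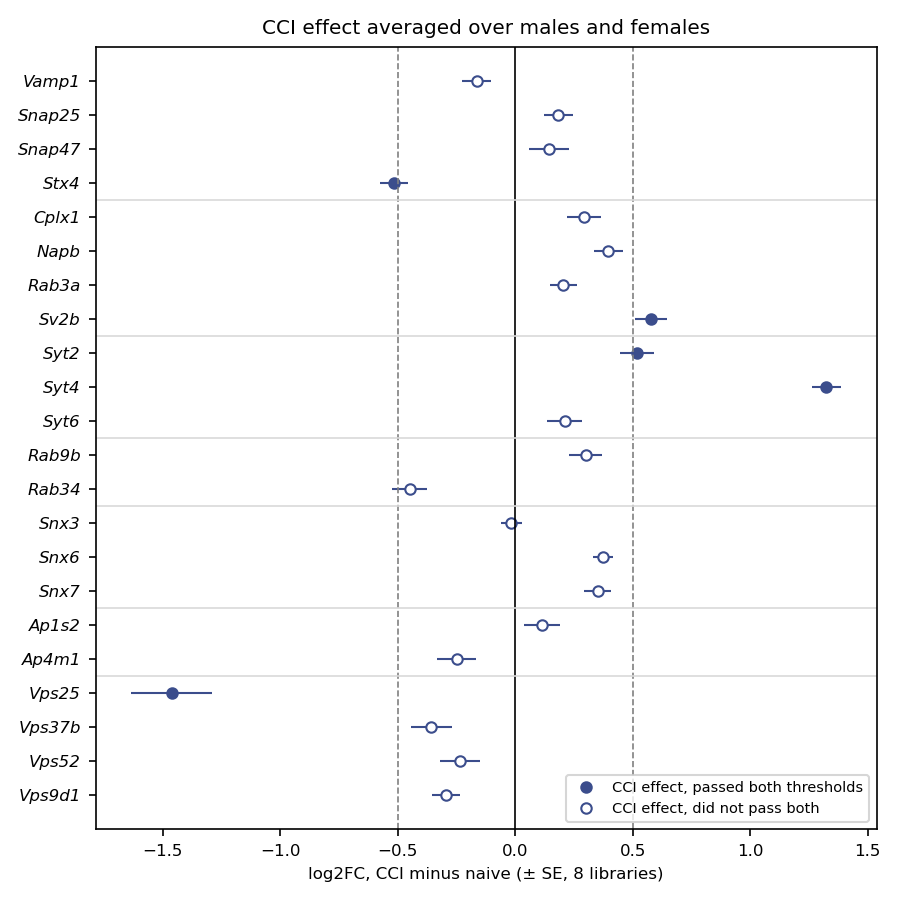
Averaged CCI effect for each of the 22 genes, as log2FC (CCI minus naive) with its standard error over 8 libraries. Filled points passed both thresholds, dashed lines mark a log2FC of 0.5 in either direction, and grey lines separate the roles. Syt4 (1.32) and Vps25 (-1.46) lie farthest from 0.

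The other 17 genes did not pass both thresholds and are given by role. Complexin 1 (Cplx1, which holds assembled SNAREs ready), Napb (the β-SNAP that brings NSF to used SNARE complexes) and Rab3a (the Rab of synaptic vesicles) passed the adjusted p alone, with averaged log2FCs of 0.29 ± 0.07, 0.40 ± 0.06 and 0.21 ± 0.06 (SE, n = 8). Snap25, the neuronal SNARE of the target membrane, was also past the adjusted p alone (0.18 ± 0.06). Its relative Snap47 (0.14 ± 0.08) and Vamp1 (synaptobrevin 1, -0.16 ± 0.06) were not. Syt6 was not past it either (0.21 ± 0.07). Snx6 and Snx7, sorting nexins that bend membrane, passed the adjusted p alone at 0.37 ± 0.04 and 0.35 ± 0.06, whereas Snx3, which works with retromer, was not past it (-0.02 ± 0.04). Rab9b, a relative of the Rab of late endosome to Golgi transport, was higher (0.30 ± 0.07) and Rab34, which takes part in cilium formation, was lower (-0.45 ± 0.08), both past the adjusted p alone. Rab34 passed both thresholds without naive male 2 (-0.52) or without CCI male 1 (-0.50).

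Some calls by the adjusted p alone were close to 0.05. That of Snap25 (edgeR adjusted p = 0.0451) was lost under other normalizations and filters (0.0529 to 0.0852). It was also lost without any one library other than naive male 2 or CCI female 1. The averaged log2FC of Snap25 ran from 0.13 to 0.23 with one library left out. The Snap25 call held with DESeq2 (adjusted p = 0.0146) and with the replicate block (edgeR adjusted p = 0.0169). That of Ap4m1 (0.0450) was lost with DESeq2 (0.05003) and without any one library other than naive male 2 or CCI female 1 (0.0505 to 0.143). Cplx1 lost it without naive male 1, CCI male 2 or naive female 1 (0.0526 to 0.0581), Rab3a without naive male 1, CCI male 1, naive female 1 or CCI female 2 (0.0683 to 0.0778), and Rab9b without CCI female 2 (0.0520). In the other direction, DESeq2 gave Syt6, Vamp1 and Vps52 an adjusted p of 0.0322, 0.0186 and 0.0139. With edgeR these were 0.0511, 0.0656 and 0.0594. Vps52 also passed by edgeR with upper-quartile normalization (adjusted p = 0.0487), without a filter (0.0271) and with at least 10 counts in every library (0.0447). By edgeR Syt6 passed without a filter (adjusted p = 0.0304) and Vamp1 with the replicate block (0.0258). With 1 library left out, the averaged log2FC ran from 0.13 to 0.28 for Syt6 and from -0.22 to -0.11 for Vamp1. It ran from -0.31 to -0.17 for Vps52 and from 0.06 to 0.23 for Snap47.

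The 4 Vps genes all had negative averaged values. Besides Vps25, Vps37b of the ESCRT-I complex (-0.36 ± 0.09) and Vps9d1, which carries a domain found in activators of Rab5 type GTPases (-0.29 ± 0.06), passed the adjusted p alone, and Vps52 of the GARP tether did not (-0.24 ± 0.09). Ap4m1, a subunit of the AP-4 adaptor, was past the adjusted p alone (-0.25 ± 0.08), and Ap1s2 of AP-1 was not (0.11 ± 0.08). CCI and naive libraries lay apart in the same direction in both sexes for 9 of the 22 genes, against 38.4% of all genes. The 5 that were higher stand beside 20.1% and the 4 that were lower beside 18.3%.

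Promoter windows are shown for the 5 genes that passed both thresholds and for Vamp1, so that the sequence around the start of each can be read beside its values. Vamp1 stands for the members whose CCI and naive libraries lay apart in opposite directions in the sexes. Snx3, the other such member, is not shown. The windows are RefSeq sequence of the GRCr8 build, 300 bases around the annotated start and 5′ to 3′ on the gene's strand. Capitals mark matches, on either strand, to the cyclic AMP response element TGACGTCA, its shorter form TGACG, the AP-1 motif TGANTCA or the GC box GGGCGG, where TGACG also lies inside TGACGTCA.
Syt4, chr18:23320814-23321113, minus strand: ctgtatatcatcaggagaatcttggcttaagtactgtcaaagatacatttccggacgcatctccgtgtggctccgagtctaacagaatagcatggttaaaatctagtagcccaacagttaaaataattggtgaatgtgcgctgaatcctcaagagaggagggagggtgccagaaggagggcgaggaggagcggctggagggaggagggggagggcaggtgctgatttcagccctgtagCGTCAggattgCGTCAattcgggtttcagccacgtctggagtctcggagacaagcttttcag
Sv2b, chr1:138562209-138562508, minus strand: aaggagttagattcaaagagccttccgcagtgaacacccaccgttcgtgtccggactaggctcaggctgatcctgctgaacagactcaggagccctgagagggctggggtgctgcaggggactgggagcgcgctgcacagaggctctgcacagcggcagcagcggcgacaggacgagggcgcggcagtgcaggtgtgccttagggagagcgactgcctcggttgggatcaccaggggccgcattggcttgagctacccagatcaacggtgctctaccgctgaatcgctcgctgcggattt
Syt2, chr13:48736872-48737171, plus strand: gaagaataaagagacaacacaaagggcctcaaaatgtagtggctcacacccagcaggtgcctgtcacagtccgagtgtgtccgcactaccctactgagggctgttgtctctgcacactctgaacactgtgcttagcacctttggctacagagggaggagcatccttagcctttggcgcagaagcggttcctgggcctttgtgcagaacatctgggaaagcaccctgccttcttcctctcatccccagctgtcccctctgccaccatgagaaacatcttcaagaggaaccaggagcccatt
Stx4, chr1:191881817-191882116, plus strand: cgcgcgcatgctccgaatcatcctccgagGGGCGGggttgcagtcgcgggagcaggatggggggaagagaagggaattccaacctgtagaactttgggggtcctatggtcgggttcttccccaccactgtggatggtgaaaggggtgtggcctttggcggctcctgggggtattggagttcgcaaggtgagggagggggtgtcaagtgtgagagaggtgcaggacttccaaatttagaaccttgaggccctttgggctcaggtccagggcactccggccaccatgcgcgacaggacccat
Vps25, chr10:86696137-86696436, plus strand: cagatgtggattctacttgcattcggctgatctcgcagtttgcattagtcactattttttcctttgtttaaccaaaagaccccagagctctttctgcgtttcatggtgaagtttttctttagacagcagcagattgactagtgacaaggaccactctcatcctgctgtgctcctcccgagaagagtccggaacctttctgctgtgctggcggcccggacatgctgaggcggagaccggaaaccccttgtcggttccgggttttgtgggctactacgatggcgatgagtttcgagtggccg
Vamp1, chr4:159698644-159698943, plus strand: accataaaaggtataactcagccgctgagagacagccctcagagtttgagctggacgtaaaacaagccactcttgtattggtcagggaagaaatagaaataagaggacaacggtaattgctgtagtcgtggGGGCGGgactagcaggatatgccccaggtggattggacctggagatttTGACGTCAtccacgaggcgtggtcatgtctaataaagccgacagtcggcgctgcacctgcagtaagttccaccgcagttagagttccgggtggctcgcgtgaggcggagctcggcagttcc
Such windows were found for 21 of the 22 genes (not Snap25). TGACGTCA occurred in 2 of them (Vamp1 and Vps37b) against 1.83% of 33469 promoters, TGACG in 8 against 21.2%, TGANTCA in 1 (Rab34) against 7.33%, and GGGCGG in 15 against 33.1%. Syt4 holds a pair of TGACG matches in reverse orientation, Stx4 holds a GC box, and Vamp1 holds TGACGTCA and a GC box. Sv2b, Syt2 and Vps25 hold none of these letters in this window. These are letter matches and not measured binding.

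**Figure D2:**
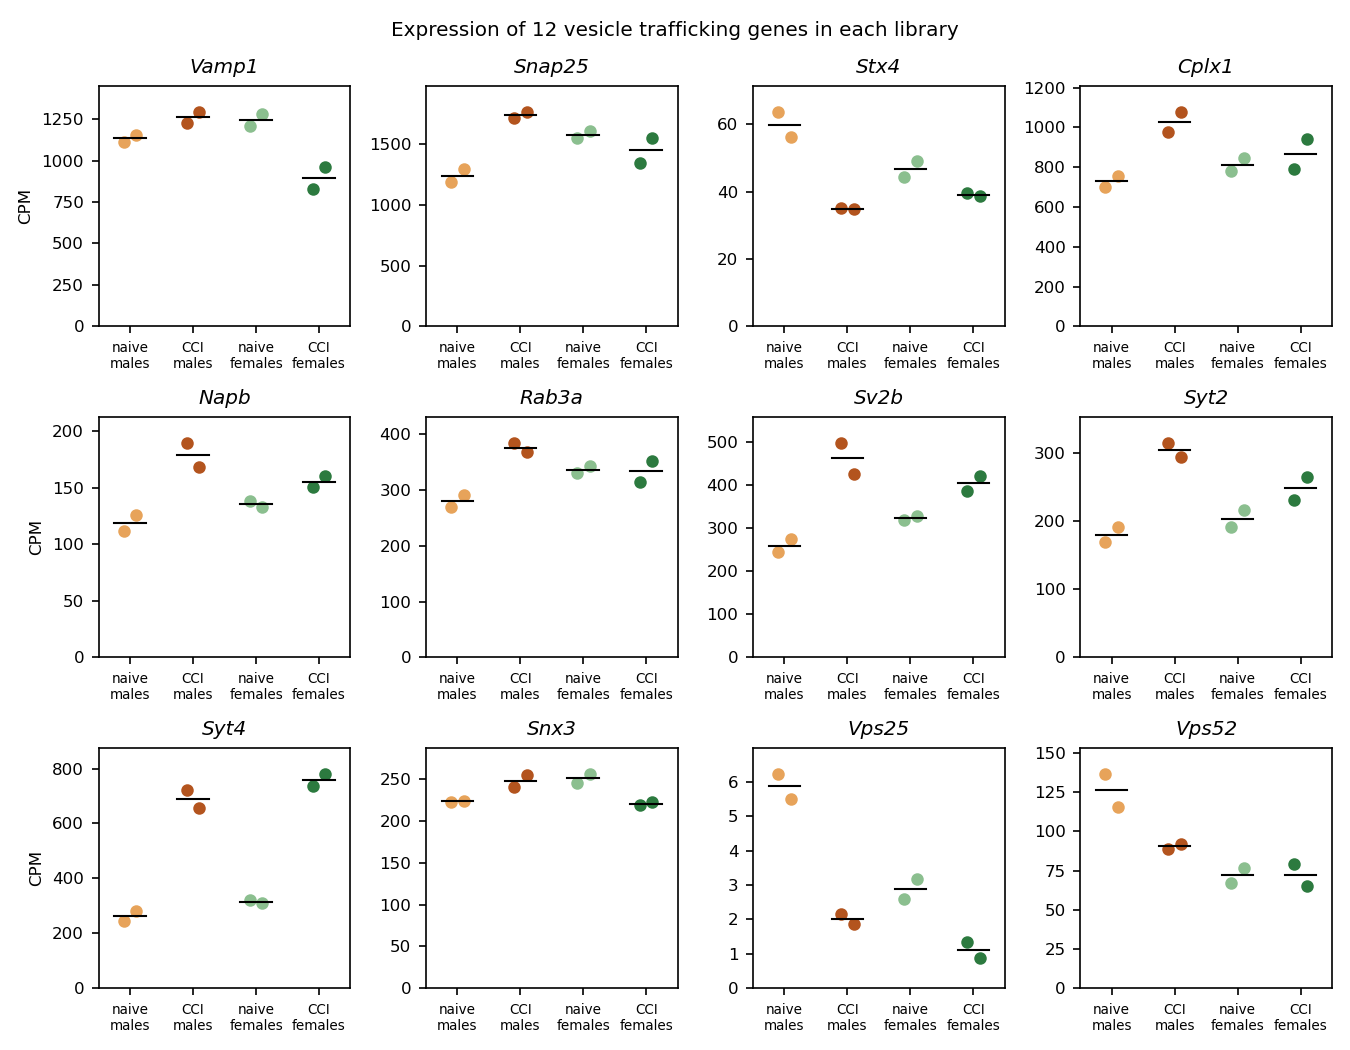
CPM of 12 of the genes in each library, with points for single rats, horizontal bars for group means (n = 2) and axes that start at 0. Syt4 is higher in CCI rats of both sexes, Vamp1 is lowest in CCI females (825 and 958), and Vps52 is highest in naive males (137 and 115).

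Within each sex the values describe the members and test nothing, since these contrasts make up the interaction that chose most of them. In males, 11 of the 22 genes passed both thresholds by edgeR against 21.6% of all genes. The 7 that were higher stand beside 9.05% and the 4 that were lower beside 12.5%. CCI and naive males did not overlap for any of the 22 genes against 72.8% of all genes, with 15 higher (36.3%) and 7 lower (36.6%). In females, 2 passed against 5.69% of all genes, Syt4 as higher (3.69%) and Vps25 as lower (2%). CCI and naive females did not overlap for 11 genes against 59.5%, with 5 higher (30.5%) and 6 lower (29%). The call of Vps25 in females was lost without CCI female 1 or without CCI female 2. Without CCI male 1, which leaves 1 rat in that group and assumes that it varies like the naive males, edgeR passed 0 genes of the whole table in males, although 19 members and 6494 of all genes had an unadjusted p below 0.05. The median log2FC of the members was 0.43 in males and -0.05 in females, beside -0.01 and -0.02 over all genes.

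Higher in CCI males by both thresholds were Napb, Rab9b, Snx6, Snx7, Sv2b, Syt2 and Syt4. Napb had a CPM of 112 and 126 in naive males, 190 and 169 in CCI males, 139 and 134 in naive females, and 150 and 161 in CCI females. Its log2FC was 0.60 ± 0.10 in males and 0.18 ± 0.08 in females (SE, n = 4 libraries per sex). The corresponding values were 0.84 ± 0.11 and 0.31 ± 0.08 for Sv2b, 0.76 ± 0.09 and 0.27 ± 0.10 for Syt2, and 1.39 ± 0.10 and 1.25 ± 0.08 for Syt4. Sv2b and Syt2 thus did not overlap in either sex, with a smaller difference in females, while the Syt4 difference had a like size in both. Lower in CCI males by both thresholds were Rab34, Stx4, Vps25 and Vps37b, with log2FCs of -0.68, -0.77, -1.54 and -0.65. In females these were -0.22, -0.27, -1.39 and -0.07.

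**Figure D3:**
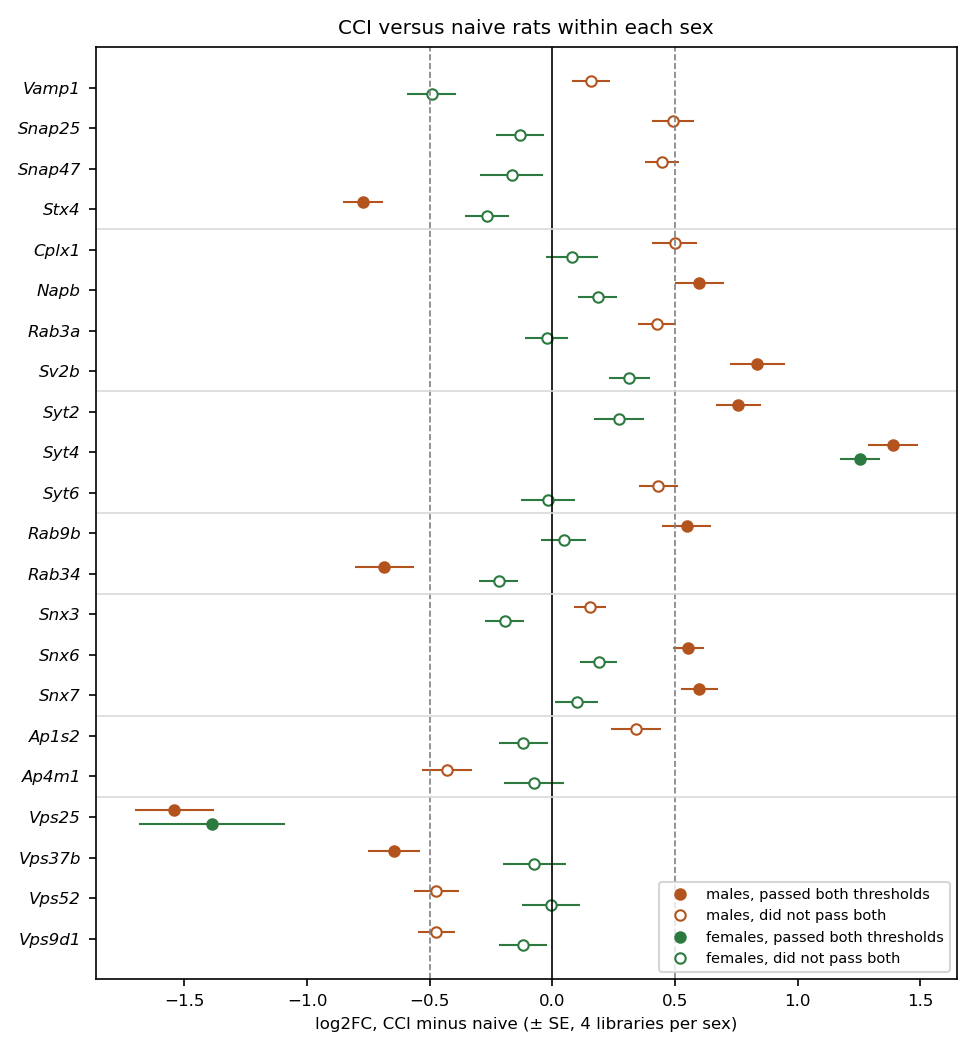
CCI minus naive log2FC (± SE, 4 libraries per sex) for each gene, with males in orange and females in green and filled points where both thresholds were passed. In males 11 points are filled and in females 2, and Vamp1 and Snx3 are among the genes on opposite sides of 0 in the sexes.

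Snap25 and Vamp1, partners in one neuronal SNARE complex, differed most between the sexes in the direction that chose them. Snap25 had a CPM of 1184 and 1290 in naive males, 1709 and 1764 in CCI males, 1547 and 1604 in naive females, and 1346 and 1547 in CCI females. Naive males were lowest and CCI males highest, and both female groups lay between them. Vamp1 had a CPM of 1113 and 1154 in naive males, 1229 and 1294 in CCI males, 1210 and 1281 in naive females, and 825 and 958 in CCI females. Both CCI males exceeded both naive males, and CCI females lay below every other library. Vamp1 and Snx3 were the members whose CCI and naive libraries lay apart in both sexes in opposite directions. Of all genes 7.01% did so, 3.59% in the direction of these 2 (lower in females) and 3.42% in the other. The CCI log2FC in females minus that in males was -0.61 ± 0.12 for Snap25 and -0.64 ± 0.12 for Vamp1 (SE, n = 8). Over the 22 genes this difference ran from -0.64 to 0.59 and was negative in 15, and by edgeR 0 of 22 reached an adjusted p below 0.05, against 1.59% of all genes. An unadjusted p below 0.05 was found for 19 members and 4085 of 16988 genes, and an adjusted p below 0.05 by DESeq2 for 16 members and 1594 of 23944 genes.

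Naive females and naive males did not overlap for 21 of the 22 genes against 60% of all genes, with 14 higher in females (29.5%) and 7 lower (30.5%), again as chosen. Vps52 had a CPM of 137 and 115 in naive males, 89.0 and 92.0 in CCI males, 67.2 and 76.6 in naive females, and 79.2 and 65.1 in CCI females, so that naive males were highest and the female groups overlapped. Vps25, Vps9d1 and Ap4m1 were also higher in naive males, with log2FCs of naive females minus naive males of -1.02, -0.55 and -0.54, beside -0.81 for Vps52. By edgeR 0 of the 22 passed in this comparison, against 0.0706% of all genes. An unadjusted p below 0.05 was found for 15 members and 4345 of 16988 genes, and 4 members and 1014 of 23944 genes passed by DESeq2. Naive males were most often the extreme group. Both of their libraries lay below the other 6 for 12 members, Snap25, Cplx1, Rab3a, Sv2b and Syt4 among them, and above the other 6 for 7 members, which were the 4 Vps genes, Ap4m1, Rab34 and Stx4. Over all genes these shares were 17% and 19.5%. Both libraries of CCI males lay above the other 6 for 10 members and below them for 2, against 12.7% and 10.8% of all genes. The interaction that chose most members uses both male groups, so these counts are a description.

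Markers of cell types also differed after CCI. In bulk ganglia fewer cells of a type and less RNA per cell cannot be told apart. Identifiers, again from the study's lists of changed genes, were found for 8 of 16 sensory neuron markers (Calca, Nefh, Nefl, Nefm, P2rx3, Scn9a, Tac1 and Uchl1), and none was at 0 in a library. Their summed CPM was 17371 to 19683 in naive males, 28741 to 29477 in CCI males, 21298 to 21919 in naive females, and 22640 to 26932 in CCI females. All 8 passed as higher after CCI in males and 1 in females. For 8 of 12 Schwann cell and myelin markers, none at 0, the summed CPM was 11108 to 13525 in naive males, 3391 to 3542 in CCI males, 7785 to 9550 in naive females, and 4343 to 5627 in CCI females, and all 8 passed as lower after CCI in males, beside 3 in females, where 7 had a lower value. Within males, 15 members had a higher level after CCI and 7 a lower one. The neuron markers were all higher and the myelin markers all lower in males, so any gene that changed matches 1 of these lists by direction. In females all 8 neuron markers had a higher value, and of the 22 members 8 had a higher value and 14 a lower one. Snap25 (-0.13) and Vamp1 (-0.49), both higher in CCI males, were among those lower in females. The part of either cell type in these results was not tested. Blood markers (6 of 7) had a summed CPM of 129 and 1379 in the naive males, 220 to 251 in CCI males, 1344 to 2019 in naive females and 167 to 211 in CCI females, and all 6 passed as lower in females and in the averaged effect. Muscle markers (5 of 12) passed as higher after CCI in males for all 5, while in females all 5 had a lower value and 2 passed. Injury markers of neurons (5 of 8) passed as higher for all 5 in each sex. Satellite glia and macrophages had 1 identified marker each, Fabp7 and Cd74.

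Set against the mean log2 CPM of the 8 neuron markers, a description chosen after these values were known, 20 of the 22 genes had a lower value after CCI in each sex. Over all genes this share was 95.4% in males and 83.9% in females, and the marker mean itself was higher after CCI by 0.80 in males and 0.32 in females. The 8 markers had identifiers only through the study's lists of changed genes. The CCI log2FC in females minus that in males was negative for all 8 (median -0.45). That choice can favour a larger rise in males, so the scale is not neutral between the sexes. Syt4 kept a higher value after CCI on this scale, by 0.58 in males and 0.94 in females. Sv2b (0.03 and 0.00) and Syt2 (-0.05 and -0.04) lay near 0 and their CCI and naive libraries overlapped in both sexes. Snap25 was at -0.31 in males and -0.45 in females, Cplx1 at -0.31 and -0.23, and Vamp1 at -0.65 and -0.80. Stx4 was at -1.58 and -0.57, and Vps52 at -1.28 and -0.32. The scale takes the same amount from every gene within a sex, and more in males. The markers thus shift the gap between the sexes by the same amount for every gene. How that gap varies from member to member comes from their own CCI changes, which helped to choose most of them.

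**Figure D4:**
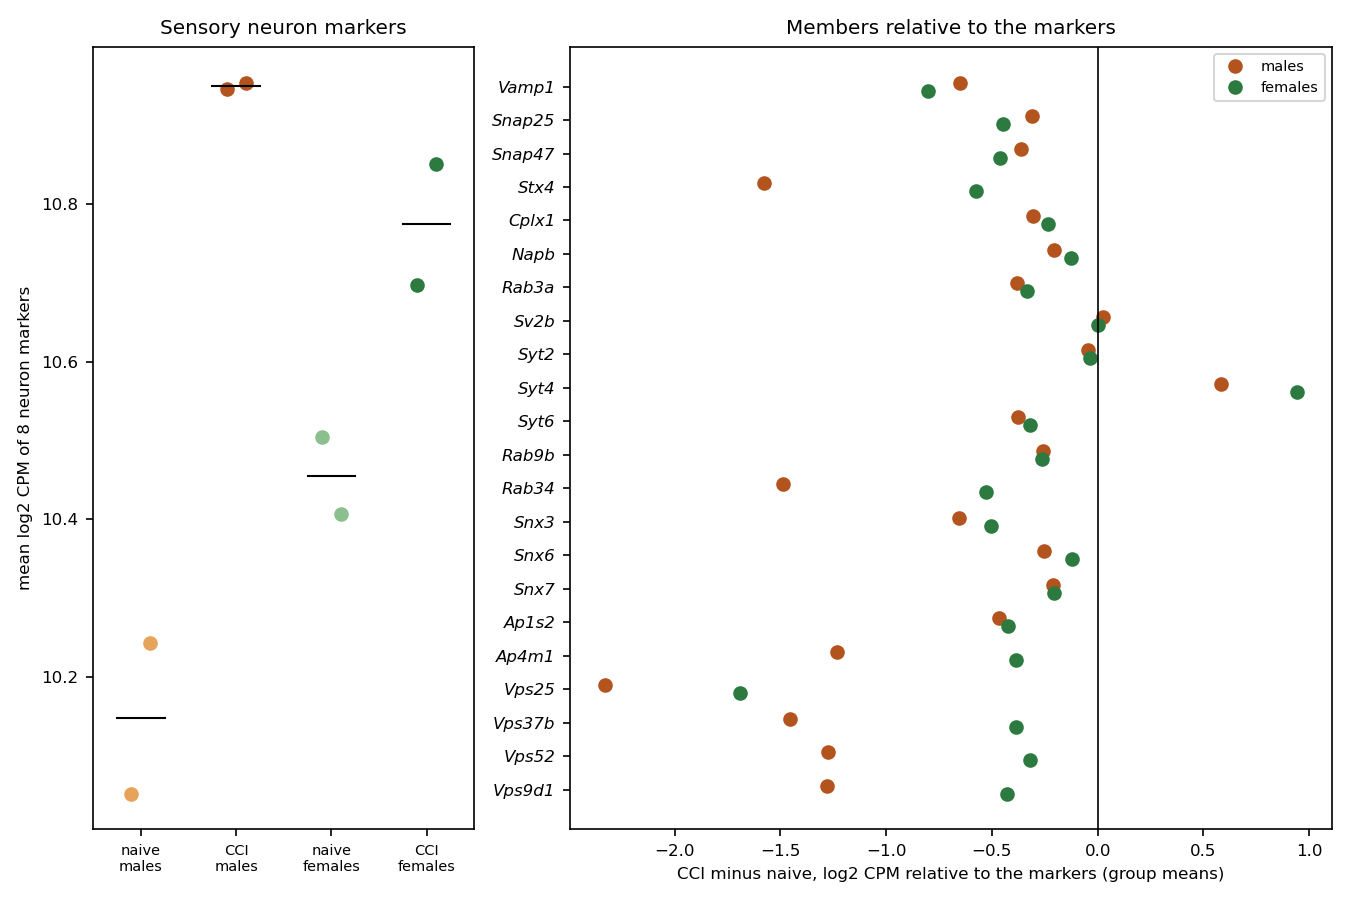
Left, mean log2 CPM of the 8 sensory neuron markers in each library, with bars at group means (n = 2) and an axis that does not start at 0. Right, change of each gene after CCI relative to that mean, for males (orange) and females (green), from group means. Syt4 lies above 0 in both sexes (0.58 and 0.94), and 20 genes lie below 0 in each.

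Further genes of secretion had identifiers only where the study's lists gave them, 17 besides the members. Averaged over the sexes 7 passed as higher and 2 as lower by edgeR, against 6.08% and 9.29% of all genes, and because CCI, interaction or naive sex lists chose them this is a description. Of the 7 that were higher, 4 were on the list of dense-core vesicle cargo, which held 6 of the 17. Vgf, a neuropeptide precursor, had a CPM of 29.0 and 13.4 in naive males, 113 and 64.3 in CCI males, 24.1 and 26.8 in naive females, and 104 and 97.8 in CCI females, with an averaged log2FC of 2.03 ± 0.26 (SE, n = 8). The granins Scg2 and Scg3 had averaged log2FCs of 0.82 ± 0.07 and 0.61 ± 0.05. Nsf, the ATPase that takes SNARE complexes apart and the partner of Napb, was at 0.66 ± 0.07, and Cadps, which primes dense-core vesicles, at 0.64 ± 0.06. Unc13b, a priming factor of the Munc13 family, was lower at -0.56 ± 0.13, with a CPM of 24.6 and 17.6 in naive males and 12.5 and 11.3 in CCI males. In females the mean CPM was 14.2 in naive and 11.5 in CCI rats, and the libraries did not overlap. The Unc13b log2FC was -0.82 ± 0.17 in males and -0.31 ± 0.14 in females. Both thresholds were passed in males and not in females, so the averaged value comes mostly from males.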

How the data were processed

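Poly(A)-selected, strand-specific libraries (NEBNext Ultra Directional) of 8 rats were sequenced in paired ends on an Illumina HiSeq2500. Per the study's methods and processing notes (CASAVA 1.8.2), the authors aligned reads to rn6 with HISAT2, removed ribosomal RNA and used featureCounts to assign them to Ensembl genes. The deposited counts are raw, and batches were not corrected for. The strand setting and the handling of reads shared by overlapping or similar genes are not given in the sources used here.

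From these counts, genes were filtered with filterByExpr (minimum count 10, minimum total 15), scaled by TMM and tested with edgeR 4.0.16 (R 4.3.3), within each sex on 4 libraries and for the averaged effect, the interaction and every 8-library comparison on all of them. Thresholds were an adjusted p of 0.05 and an absolute log2FC of 0.5 (the interaction used the adjusted p only). SE was derived from the F statistic. Log2 CPM used a prior count of 2. Calls depend on modelled variance: 2 rats per group limit precision, and depth does so mainly for Vps25. Selection by the interaction may also favour genes with small spread between rats, which the averaged test uses too. DESeq2 1.42.0, other normalizations and filters, a replicate block and leaving out each library served as alternatives, and the fits were tested on simulated data. Members and gene lists were chosen with earlier results of these data known. All 22 members are named, and of the other pathway genes the 5 per direction with the largest averaged log2FC among those called, a mean log2 CPM not below 1 and no overlap of CCI and naive libraries within either sex. Gene symbols came from the study's lists, which paired 36 of 190 listed pathway genes (19 members among them). Columns of the authors' own comparisons in those lists were not used.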

Additional observations from a re-analysis of the deposited data

Results flagged for a closer look

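Vamp1 and Snx3 differed after CCI in opposite directions in the sexes, with both CCI males above both naive males and both CCI females below both naive females. The CCI log2FC in females minus that in males was -0.64 for Vamp1 and -0.34 for Snx3. Snx3 had a CPM of 223 and 224 in naive males, 240 and 255 in CCI males, 245 and 256 in naive females, and 219 and 222 in CCI females. The edgeR adjusted p of this interaction was 0.0526 for Vamp1 and 0.0876 for Snx3, and it is no evidence of a difference between the sexes, because the interaction is what chose both genes.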

How the results depend on the processing

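The averaged CCI effect had 5 members past both thresholds, and also under DESeq2, other normalizations and filters and the replicate block. Without a log2FC threshold there were 16, and with one library left out 3 to 6, the 3 without naive male 1. In males 11 became 19 without the log2FC threshold and 0 to 16 with one library left out (0 without CCI male 1, 16 without naive male 2). In females 2 became 1 to 3 with one library left out. The interaction went from 0 members to 16 under DESeq2, 5 without a filter, 2 with at least 10 counts in every library, 2 with the replicate block, and 0 to 2 with one library left out. The naive sex difference went from 0 to 4 under DESeq2, 1 without a filter, 4 in the fit over all 8 libraries, and 0 to 1 with one library left out. The causes were not tested, except that leaving out a library leaves fewer samples.

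Replicate numbers were taken as names only, and the main fits left them out. Across genes, deviations of same-numbered libraries correlated at 0.73 between naive and CCI males, whose first libraries share a header suffix of unstated meaning. The other pairs of groups were at 0.13, 0.04, 0.14, -0.02 and -0.01. What lies behind the male value was not tested, and the main fit in males does not allow for it. With the replicate block the calls in males were 11 of the members and 4478 of all genes, beside 3663 without it.

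Signs turned in the following values, and none of them had passed a threshold. For CCI in females, Vps52 was 0.0047 in the 8-library fit. With one library left out it ranged from -0.14 to 0.14, Snap47 from -0.33 to 0.027, Rab3a from -0.097 to 0.066, Rab9b from -0.031 to 0.13, Syt6 from -0.16 to 0.13, Ap4m1 from -0.16 to 0.028, Cplx1 from -0.044 to 0.21 and Vps37b from -0.20 to 0.060. The averaged value of Snx3 ranged from -0.045 to 0.0037, and the interaction value of Vps25 from -0.18 to 0.45.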
